A study of Mus musculus with 8 samples.

Results

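Levels of 8 genes for enzymes that modify structural proteins of skin and hair were followed in mouse skin: the peptidylarginine deiminases Padi1, Padi2, Padi3 and Padi4 and the transglutaminases Tgm1, Tgm2, Tgm3 and Tgm5. They were chosen by name, as the rows of the deposited files that carry these symbols, and are 8 of 55418 genes listed. Total RNA of skin came from hairloss mice, which carry a spontaneous mutation, and from wildtype mice, at postnatal days 0, 16, 19 and 28. That gives 8 libraries, 1 for each genotype and day, so a day's contrast of hairloss with wildtype has no error and describes a pair of libraries. The sources used here do not give the mutated gene, the strain, the body site or the number of animals behind a library. Values are taken to be FPKM, a measure per transcript length and sequencing depth, so that levels can be set side by side between genes. The lowest values imply about 31600000 to 43700000 fragments per library, at which the 8 genes rest on an estimated 54.1 to 21500 fragments per value. No member was listed at 0 in any library. Sex differed between some libraries: the Y-linked gene Ddx3y had 0, 20.4, 19.4 and 0 FPKM at days 0, 16, 19 and 28 in hairloss skin and 16.3, 20.1, 15.8 and 16.5 FPKM in wildtype skin. Xist, expressed in females, stood beside it at 51.3 FPKM in wildtype skin of day 0 and at 12.4 FPKM in that of day 19. Hairloss skin of days 0 and 28 had 76.1 and 50.2 FPKM of Xist, and wildtype skin of day 28 had 0.166 FPKM. In the pair of day 28, sex and genotype therefore cannot be told apart. The pairs of days 0 and 19 were not matched for sex either, as wildtype skin of both days showed both genes. Hairloss skin had no Ddx3y at day 0 and 0.115 FPKM of Xist at day 19. At day 16 Xist had 0.00961 FPKM in hairloss and 0.0158 FPKM in wildtype skin, both with Ddx3y. The part of sex in the values below was not tested.

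Peptidylarginine deiminases convert arginine residues of proteins into citrulline in the presence of calcium, which removes a positive charge and loosens protein structure. Transglutaminases, also calcium-dependent, join glutamine and lysine residues of neighbouring proteins by a bond that proteases do not cut. In the inner root sheath and the medulla of the hair follicle both reactions act in turn on trichohyalin, and in the epidermis they act on filaggrin, keratins and the precursors of the cornified envelope. PADI3, TGM3 and TCHH, which encodes trichohyalin, are the genes altered in uncombable hair syndrome in humans. The mouse follicle completes its first growth phase in the third postnatal week, rests briefly, and then enters a second growth phase.

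The deiminase genes Padi1, Padi3 and Padi4 varied between libraries far more than the 4 transglutaminase genes Tgm1, Tgm2, Tgm3 and Tgm5 did. Tgm6, a transglutaminase gene outside the 8, also varied widely, from 0.184 to 50.3 FPKM. Padi3 ranged from 1.17 to 206 FPKM, a ratio of highest to lowest of 175, Padi4 ranged 90.6-fold and Padi1 78.3-fold. Tgm3 ranged 9.77-fold, Tgm5 7.86-fold and Padi2 6.84-fold, while Tgm1 ranged 3.61-fold and Tgm2 2.54-fold. Padi1, Padi3 and Padi4, the widest-ranging of the 8 genes, had their highest level in wildtype skin of day 16. The order of levels there was Padi3, Tgm1, Padi1, Padi4, Tgm3, Tgm2, Tgm5 and Padi2. In hairloss skin of day 28 the order was Tgm1, Tgm5, Tgm2, Tgm3, Padi2, Padi4, Padi3 and Padi1. With 1 library per group no spread is available to say which neighbours in these orders differ.

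**Figure D1:**
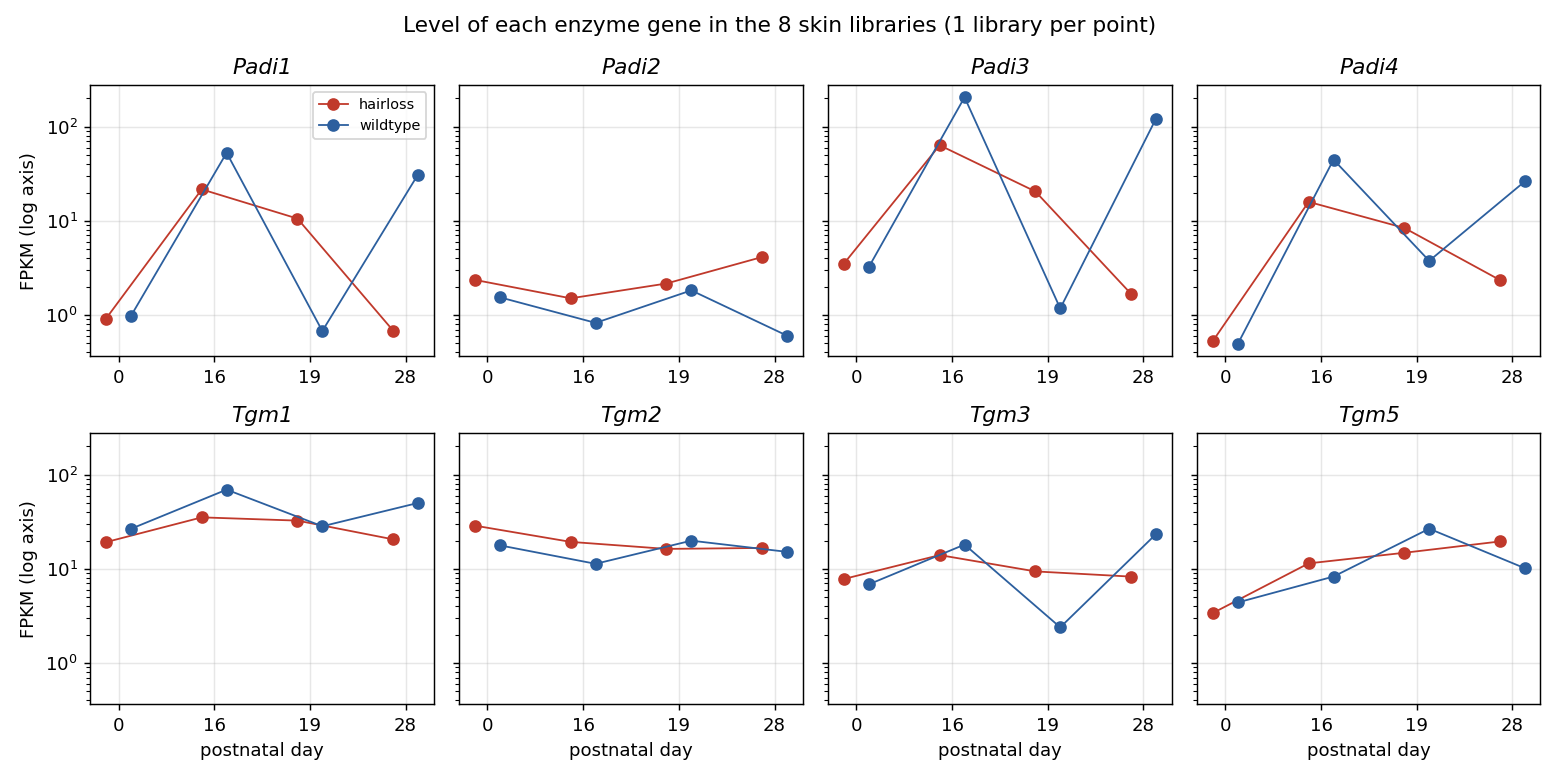
FPKM (log axis) of each of the 8 genes against postnatal day (days evenly spaced, not to scale), with 1 point per library, hairloss in red left of wildtype in blue. Padi1, Padi3 and Padi4 reach their highest points in wildtype skin of days 16 and 28 and, in wildtype, drop at day 19, whereas Tgm2 stays between 11.3 and 28.8 FPKM in all 8 libraries.

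Padi3, the deiminase of trichohyalin in the follicle and of filaggrin in the upper epidermis, had 3.52, 63.6, 20.5 and 1.68 FPKM at days 0, 16, 19 and 28 in hairloss skin. In wildtype skin it had 3.24, 206, 1.17 and 121 FPKM at the same days. The wildtype series was thus high, low and high again over days 16, 19 and 28, while the hairloss series declined over those days. The ratio of hairloss to wildtype was 1.09 at day 0, 0.309 at day 16, 17.5 at day 19 and 0.0138 at day 28, the last a 72.5-fold lower level. In these bulk samples fewer cells of a type and less RNA per cell cannot be told apart.

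Padi1, a deiminase known from the living and cornified layers of the epidermis, had 0.917, 21.6, 10.6 and 0.682 FPKM in hairloss skin and 0.977, 52.9, 0.676 and 31.1 FPKM in wildtype skin at days 0, 16, 19 and 28. Its lowest levels were those of wildtype skin at day 19 and hairloss skin at day 28, and were close to each other. The ratio of hairloss to wildtype was 0.409 at day 16, 15.7 at day 19 and 0.0219 at day 28. Padi4, a nuclear deiminase best known for citrullinating histones in neutrophils, had 0.531, 15.9, 8.41 and 2.35 FPKM in hairloss skin and 0.493, 44.7, 3.76 and 26.3 FPKM in wildtype skin. Its ratios at days 16, 19 and 28 were 0.356, 2.24 and 0.0893. Padi4 had a higher level than Padi1 and Padi3 in both libraries in which those were lowest. Padi4 stood at 1.40 times the level of Padi3 in hairloss skin at day 28 and at 3.20 times in wildtype skin at day 19, against 0.151 to 0.410 times in the other 6 libraries.

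Markers of neutrophils, cells known for Padi4, were compared where 1 FPKM was reached in one of the day's libraries. Higher in hairloss skin by 2-fold on the log2(FPKM + 1) scale were 0 of 4, 7 of 7, 6 of 7 and 3 of 3 at days 0, 16, 19 and 28. Among all genes 1.49%, 5.34%, 6.53% and 5.60% were higher. Markers such as Cxcr2 reached 1 FPKM in hairloss skin alone, so being compared leaned them to the higher side. Camp, not compared at day 28, had 0.653 FPKM in hairloss and 0.881 FPKM in wildtype skin. The 10 neutrophil markers summed to 68.7, 3760, 6522 and 522 FPKM at days 0, 16, 19 and 28 in hairloss skin. In wildtype skin they summed to 55.3, 153, 14.5 and 49.1 FPKM. Most of the sum in hairloss skin was S100a8 and S100a9, which keratinocytes also express. The chemokine receptor gene Cxcr2 had 0.208, 7.59, 5.81 and 2.50 FPKM in hairloss skin and 0.193, 0.269, 0.0509 and 0.0822 FPKM in wildtype skin. Csf3r, the receptor of a granulocyte growth factor, had 0.496, 7.38, 5.59 and 0.682 FPKM in hairloss skin and 0.372, 0.158, 0.491 and 0.369 FPKM in wildtype skin. Over the days of hairloss skin both were, like Padi4, highest at day 16 and lower at days 19 and 28, whereas in the wildtype libraries of days 16 and 28, where Padi4 was highest, both were under 0.4 FPKM. Retnlg reached 7.85 FPKM in hairloss and 2.82 FPKM in wildtype skin, while Ly6g stood at 0 to 0.302 FPKM, Mpo at 0 to 0.239 FPKM and Elane at 0.0330 to 0.156 FPKM over the 8 libraries. The part of neutrophils in the level of Padi4 was not tested.

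The genes Padi4, Padi3 and Padi1 lie side by side on chromosome 4 (build mm10), all transcribed from the reverse strand. Padi4 spans 140745865 to 140774236, Padi3 140785365 to 140810648 and Padi1 140812983 to 140845778, so the start sites of neighbours are 36.4 and 35.1 kb apart with no coding gene between them. On one side lies Padi6, the oocyte deiminase, with 0.00978 to 0.0138 FPKM in hairloss skin and 0 to 0.0409 FPKM in wildtype skin. On the other lies Padi2 (140906344 to 140952586, forward strand), whose start site is 60.6 kb from that of Padi1. At day 28 the log2(FPKM + 1) difference, hairloss minus wildtype, was -3.03 for Padi4, -5.52 for Padi3 and -4.25 for Padi1, but 1.68 for Padi2.

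**Figure D2:**
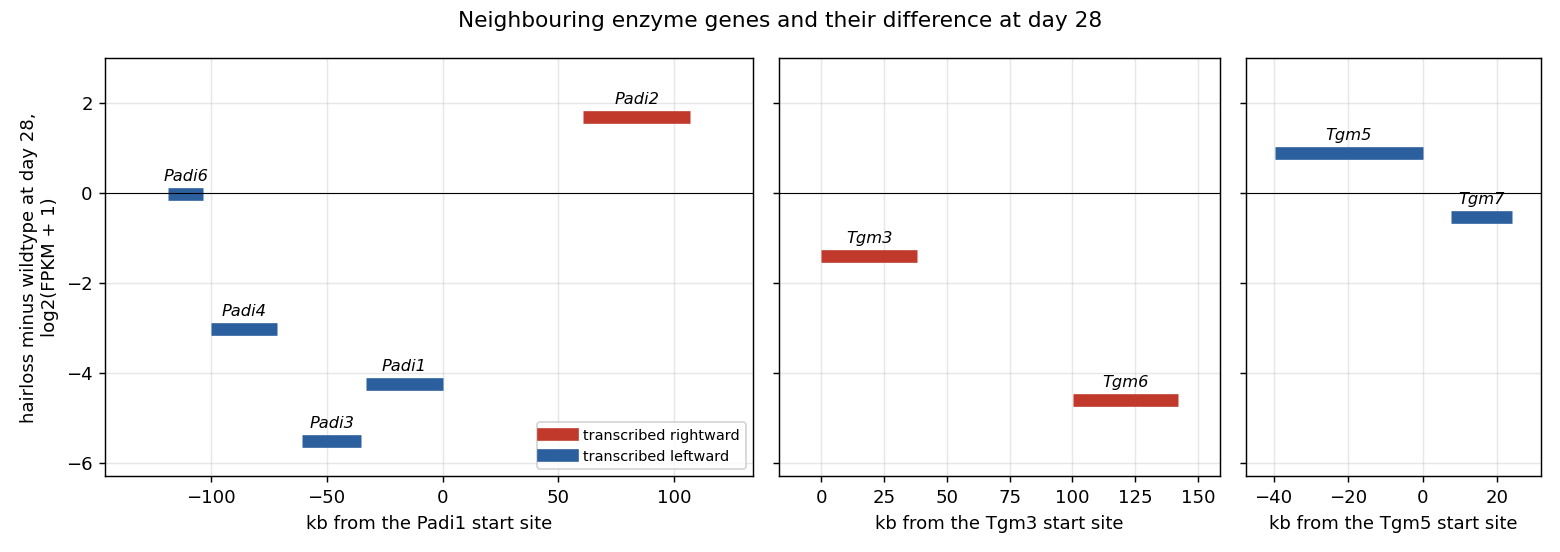
Hairloss minus wildtype difference at day 28 (log2(FPKM + 1), vertical axis) of neighbouring enzyme genes, each drawn as a bar over its position in kb from the start site named under each panel and coloured by direction of transcription. Padi4, Padi3 and Padi1 lie between -3.03 and -5.52 and their neighbour Padi2 at 1.68, while Tgm6 lies at -4.59 beside Tgm3 at -1.39.

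The 250 bases before the start site are shown for Padi3 and Padi1, adjacent genes with close profiles over the libraries, for Tgm3, the transglutaminase paired with Padi3 in the follicle, and for Tgm5, which was highest in the library where Padi3 was lowest. The sequences are from RefSeq on build GRCm38.p6, written 5' to 3' on the gene's own strand, and capitals mark letters of a searched motif.
Padi3 (chr4:140810649-140810898, reverse strand): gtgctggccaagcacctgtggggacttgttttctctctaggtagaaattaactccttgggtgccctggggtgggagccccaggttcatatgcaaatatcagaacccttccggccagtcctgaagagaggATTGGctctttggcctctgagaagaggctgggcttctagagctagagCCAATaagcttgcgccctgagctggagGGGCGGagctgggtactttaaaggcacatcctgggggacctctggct
Padi1 (chr4:140845779-140846028, reverse strand): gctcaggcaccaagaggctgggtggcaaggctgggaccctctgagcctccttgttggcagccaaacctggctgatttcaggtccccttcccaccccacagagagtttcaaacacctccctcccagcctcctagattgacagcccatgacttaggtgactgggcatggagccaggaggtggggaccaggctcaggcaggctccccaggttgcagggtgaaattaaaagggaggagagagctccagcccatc
Tgm3 (chr2:130012090-130012339, forward strand): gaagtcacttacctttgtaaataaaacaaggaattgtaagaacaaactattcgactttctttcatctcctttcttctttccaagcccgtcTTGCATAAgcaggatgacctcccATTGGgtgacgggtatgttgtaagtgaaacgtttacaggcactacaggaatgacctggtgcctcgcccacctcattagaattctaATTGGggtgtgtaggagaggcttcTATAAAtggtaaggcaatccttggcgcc
Tgm5 (chr2:121085842-121086091, reverse strand): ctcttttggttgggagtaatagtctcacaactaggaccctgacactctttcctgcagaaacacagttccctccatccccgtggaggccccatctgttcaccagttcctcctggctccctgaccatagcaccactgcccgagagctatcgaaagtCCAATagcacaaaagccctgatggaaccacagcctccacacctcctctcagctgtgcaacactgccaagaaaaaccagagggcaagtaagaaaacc

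Searched on both strands were the TATA box TATAAA, the AP-1 site TGANTCA, the CCAAT box CCAAT, the GC box GGGCGG, the LEF/TCF core CTTTGA, the grainyhead-like site AACNGGTT and the C/EBP site TTGCNNAA. No matches in the members' windows overlapped each other. Windows were at hand for 7 of the 8 members, Tgm2 being the exception, and Tgm1 had 2. In the Padi3 window there were 2 CCAAT boxes, 121 and 74 bases before the start site, and 1 GC box. In the Padi1 window there was no match, which says only that these letters are absent from it. The Tgm3 window held a TATA box 28 bases before the start site, 2 CCAAT boxes and a C/EBP site, and that of Tgm5 held 1 CCAAT box. The Padi4 window, not printed, held a TATA box and an AP-1 site 31 and 54 bases before the start site. Of 32851 promoter windows of the same length, 12.4% held the TATA box, 6.75% the AP-1 site, 33.8% the CCAAT box, 32.7% the GC box, 13.8% the LEF/TCF core, 1.79% the grainyhead-like site and 9.56% the C/EBP site. As the Padi1 window held no match, no searched motif could be common to Padi1, Padi3 and Padi4. The windows of Padi3 and Padi4 shared none of the searched motifs.

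Padi2, a deiminase of many tissues including muscle and glands, was low throughout and higher in hairloss skin at 4 of 4 days. It had 2.36, 1.504, 2.16 and 4.13 FPKM at days 0, 16, 19 and 28 in hairloss skin and 1.54, 0.824, 1.83 and 0.603 FPKM in wildtype skin. The values of the genotypes overlap across days, and the difference was widest at day 28, with a ratio of 6.84. Skeletal muscle markers stood higher in hairloss skin at that day as well. Their sum over 8 genes was 7040 FPKM in hairloss and 3156 FPKM in wildtype skin. Mast cell markers did so too, with sums of 325 and 72.5 FPKM. By 2-fold, 8 of 8 muscle, 6 of 6 mast cell, 4 of 8 suprabasal and 4 of 6 basal epidermal markers were higher and 0 lower. Among all genes 5.60% were higher and 6.42% lower. At day 16, where Padi2 had a ratio of 1.82, the muscle sum was 748 FPKM in hairloss and 1598 FPKM in wildtype skin, and the mast cell sum 368 and 138 FPKM. The part of any of these cell types in the level of Padi2 was not tested.

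Tgm3 (chromosome 2, 130012349 to 130050399, forward strand) encodes the epidermal-type transglutaminase that crosslinks trichohyalin. It had 7.82, 14.0, 9.40 and 8.28 FPKM at days 0, 16, 19 and 28 in hairloss skin and 6.85, 18.1, 2.39 and 23.4 FPKM in wildtype skin. As for Padi3, the wildtype levels were high at days 16 and 28 and lowest at day 19, whereas the hairloss levels stayed between 7.82 and 14.0 FPKM. The ratios of hairloss to wildtype were 1.14, 0.773, 3.93 and 0.354 at the 4 days. At day 28 the proportion of Padi3 to Tgm3 differed between the genotypes: in hairloss skin of day 28 the level of Padi3 was 0.202 times that of Tgm3, against 5.19 times in wildtype skin of that day.

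The gene next to Tgm3, Tgm6, with a start site 100.1 kb away on the same strand, followed Padi1 and Padi3 more closely than Tgm3 did. Tgm6, a transglutaminase best known from the human nervous system, had 0.962, 16.8, 8.17 and 0.184 FPKM in hairloss skin and 1.05, 50.3, 0.730 and 27.6 FPKM in wildtype skin. The pair thus had high values in the same wildtype libraries, days 16 and 28, but only Tgm6 was under 1 FPKM in wildtype skin of day 19 and in hairloss skin of day 28.

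Tgm1 (chromosome 14, 55700009 to 55713926, reverse strand), the membrane-bound enzyme that builds the cornified envelope and attaches lipids to it, was the most abundant of the 4 transglutaminases in 7 of the 8 libraries. It had 19.3, 35.3, 32.6 and 20.6 FPKM at days 0, 16, 19 and 28 in hairloss skin and 26.7, 69.5, 28.4 and 50.2 FPKM in wildtype skin. The level was lower in hairloss skin at 3 of 4 days, with ratios of 0.722, 0.507, 1.15 and 0.410. Wildtype skin was again highest at days 16 and 28, over a range much narrower than that of Padi3.

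Tgm5 (chromosome 2, 121046111 to 121085841, reverse strand), whose loss in humans causes peeling of the outer skin layers, was ordered differently over the libraries. It had 3.40, 11.4, 14.8 and 19.6 FPKM at days 0, 16, 19 and 28 in hairloss skin, and 4.40, 8.29, 26.7 and 10.2 FPKM in wildtype skin. Its highest level was in wildtype skin of day 19, where Padi1, Padi3 and Tgm3 were lowest. Hairloss levels increased with each day sampled, and the ratios to wildtype were 0.773, 1.38, 0.555 and 1.93.

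Tgm2, tissue transglutaminase of endothelium, fibroblasts and macrophages, was the steadiest, with 28.8, 19.4, 16.3 and 16.7 FPKM in hairloss skin and 17.8, 11.3, 20.0 and 15.2 FPKM in wildtype skin. Hairloss levels were higher at 3 of 4 days, with ratios of 1.62, 1.71, 0.817 and 1.10. At day 16 all 10 macrophage markers were at least 2-fold higher in the hairloss library, against 5.34% of all genes. Their sums were 903 and 293 FPKM in hairloss and wildtype skin. Endothelial sums over 8 genes were 89.6 and 91.6 FPKM, and fibroblast sums over 8 genes 1667 and 1971 FPKM. The collagen gene Col1a2 alone had 646 and 1215 FPKM of the fibroblast sums. By median log2(FPKM + 1) difference, hairloss minus wildtype, fibroblast genes stood at 0.44 and endothelial genes at -0.06. The part of any of these cell types in the level of Tgm2 was not tested. The gene Rprd1b lies over Tgm2 on the opposite strand, and without strand information the fragments of overlapping genes cannot be told apart.

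Differences at each day were read with a size rule and no test: the log2(FPKM + 1) values had to differ by 2-fold or more, with 1 FPKM reached in one of the libraries. At day 0 none of the 8 genes was past it in either direction, against 1.49% higher and 1.58% lower among 16685 genes, or 3.07% in all. At day 16, 3 were lower and 0 higher, namely Padi3 (-1.68), Padi4 (-1.43) and Padi1 (-1.25), against 7.39% lower and 5.34% higher among 16186 genes. At day 19, 3 were higher and 0 lower, namely Padi3 (3.31), Padi1 (2.79) and Tgm3 (1.62), against 6.53% higher and 5.76% lower among 16656 genes. Padi4 at 0.98 lay just short of the rule and Tgm5 stood at -0.81. At day 28, 5 were lower and 1 higher, against 6.42% lower and 5.60% higher among 16021 genes. Lower were Padi3 (-5.52), Padi1 (-4.25), Padi4 (-3.03), Tgm3 (-1.39) and Tgm1 (-1.25), and the higher gene was Padi2 (1.68). Tgm5 at 0.88 and Tgm2 at 0.13 were the others.

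**Figure D3:**
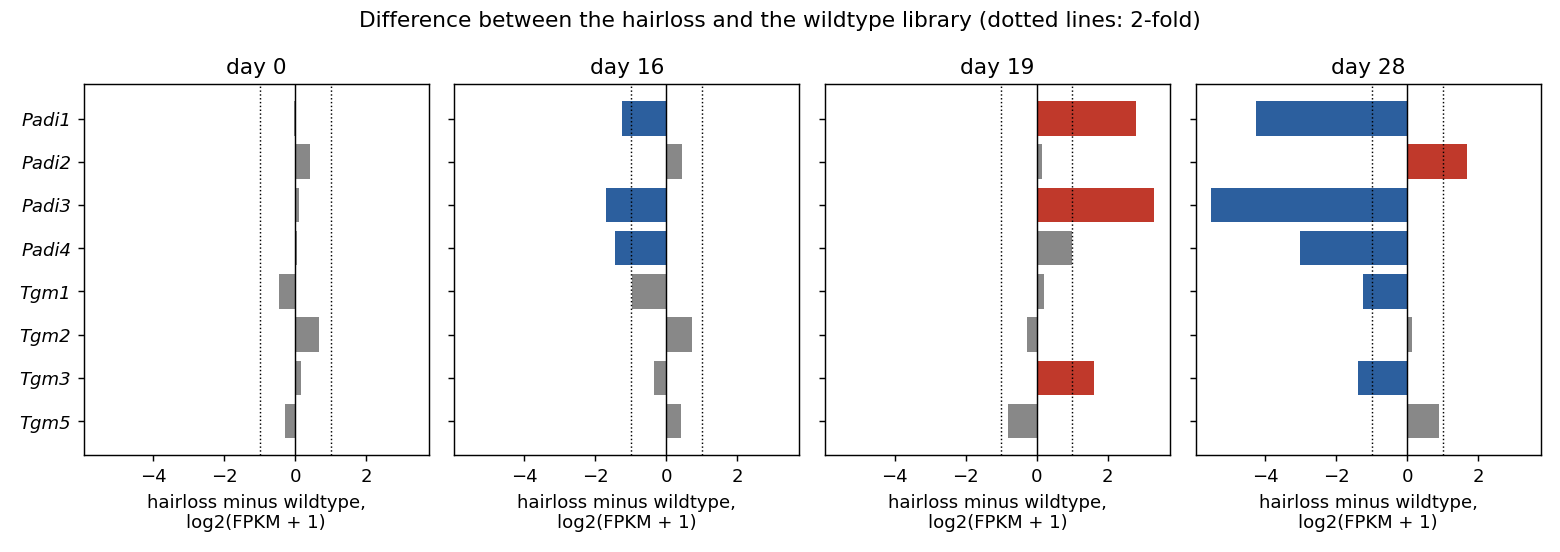
Hairloss minus wildtype difference of each gene at each day on the log2(FPKM + 1) scale, with dotted lines at 2-fold. Red bars are at least 2-fold higher in the hairloss library, blue bars at least 2-fold lower and grey bars neither. Padi1 and Padi3 lie on the lower side at days 16 and 28 and on the higher side at day 19.

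Taken as 4 pairs of equal day, the libraries gave no genotype difference past the threshold for any member. In limma, with day as a block, the mean differences were 0.67 ± 0.28 for Padi2 (SE, 4 days; adjusted p = 0.379), -0.61 ± 0.25 for Tgm1 (limma adjusted p = 0.377) and -0.86 ± 0.71 for Padi4 (limma adjusted p = 0.597). Padi3 had -0.95 ± 1.59 (limma adjusted p = 0.799) and Padi1 -0.69 ± 1.26 (limma adjusted p = 0.817). These wide errors hold the change of sign between days 16, 19 and 28: without day 28 the differences were 0.57 for Padi3 and 0.50 for Padi1, and without day 19 -2.37 and -1.85. Tgm2 had 0.31 ± 0.20, Tgm3 0.01 ± 0.49 and Tgm5 0.05 ± 0.29, with limma adjusted p of 0.501, 0.994 and 0.949. Of 18724 genes tested, 0.0267% were called higher and 0.0107% lower, 7 in all, and 2511 had an unadjusted p under 0.05. Unadjusted, the p was 0.0550 for Tgm1 and 0.0578 for Padi2, with Tgm1 lower in hairloss skin at 3 of 4 days.

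Between consecutive days, with genotype as a block, none of the 8 genes passed limma at any step. From day 0 to day 16, where 3.58% of 18724 genes were called higher and 4.42% lower, Padi4 differed by 4.20 ± 1.01 (SE; limma adjusted p = 0.0694), Padi3 by 4.72 ± 2.25 (limma adjusted p = 0.228) and Padi1 by 4.16 ± 1.78 (limma adjusted p = 0.196). Of those calls 44.8% were higher, against 25.6% when libraries were scaled without keratins and keratin-associated proteins. Tgm1 had 1.10 ± 0.36 (limma adjusted p = 0.105) and Tgm5 1.14 ± 0.42 (limma adjusted p = 0.128). The step to day 19 was called higher for 0.00534% and lower for 0.0107% of genes, and that to day 28 for 0.00% in either direction, with 975 and 1910 genes at an unadjusted p under 0.05. The members' limma adjusted p lay between 0.673 and 0.740 at the first of these steps and between 0.562 and 0.973 at the second.

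Within each genotype the size rule gave the following picture, again without a test. From day 0 to day 16, Padi3 (3.84), Padi1 (3.56), Padi4 (3.47) and Tgm5 (1.499) were higher in hairloss skin and no member was lower, against 10.5% higher and 11.4% lower among all genes. In wildtype skin Padi3 (5.61), Padi4 (4.94), Padi1 (4.77), Tgm1 (1.35) and Tgm3 (1.28) were higher, against 11.1% higher and 9.53% lower. From day 16 to day 19 the hairloss libraries differed little: Padi3 alone was past the rule, at -1.58, with backgrounds of 2.33% higher and 2.07% lower. Over the same days in wildtype skin 5 members were lower, Padi3 (-6.57), Padi1 (-5.01), Padi4 (-3.26), Tgm3 (-2.49) and Tgm1 (-1.26), and Tgm5 was higher (1.58), with backgrounds of 7.63% lower and 6.41% higher. From day 19 to day 28 Padi3 (-3.01), Padi1 (-2.78) and Padi4 (-1.49) were lower in hairloss skin, where 4.50% of genes were lower and 3.75% higher. In wildtype skin Padi3 (5.82), Padi1 (4.26), Tgm3 (2.84) and Padi4 (2.52) were higher and Tgm5 (-1.31) lower, against 8.09% of genes higher and 8.78% lower. Whether the steps differ between the genotypes was not tested, since a fit with that term leaves no residual degrees of freedom.

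To set follicle against epidermis, each gene's log2(FPKM + 1) profile over the 8 libraries was centred on its mean and compared with the median profile of marker genes, by root mean square difference in log2 units, which counts the size of the swings as well as their direction. Of 13 marker sets, the inner root sheath keratins were nearest to Padi3 (0.495), Padi1 (0.649) and Padi4 (1.24). Hair shaft keratins came second for Padi3 (1.25) and Padi1 (1.57), and sebaceous gland genes for Padi4 (1.38). Padi1, Padi3 and Padi4 were on the same side of their means as both keratin sets in 8 of 8 libraries. The 7 inner root sheath keratins form the filaments of the sheath. Over the 4 days they summed to 320, 4758, 1446 and 247 FPKM in hairloss and 260, 8885, 77.6 and 6848 FPKM in wildtype skin. By the size rule hairloss skin had 5 of the 7 lower at day 16, all 7 higher at day 19 and all 7 lower at day 28. All 8 hair shaft keratins were likewise lower, higher and lower at these days. Among all genes 7.39% were lower, 6.53% higher and 6.42% lower. The part of either keratin set in the levels of Padi1, Padi3 and Padi4 was not tested. Tgm3 was on the same side of its mean as the inner root sheath keratins in 7 of 8 libraries, with smaller swings. Its centred log2 values were 0.85, -1.64 and 1.202 in wildtype skin of days 16, 19 and 28, and theirs 3.21, -3.64 and 2.58. By distance Tgm3 therefore stood 1.58 from the inner root sheath, but 0.902 from sebaceous gland genes, which in wildtype skin of day 19 lay on the other side of their mean (0.45). Tgm3 and Padi3 were 1.78 apart, although both were lowest in wildtype skin of day 19. Tgm1 was nearest to sebaceous gland genes (0.577) and next to adipocyte (0.790) and suprabasal genes (0.818). It was on the same side of its mean as these sets in 4, 2 and 4 of 8 libraries. With the inner root sheath keratins, 1.90 away by distance, Tgm1 shared the side in 8 of 8 libraries, with smaller swings. Suprabasal genes were nearest to Tgm5 (0.560) and Padi2 (0.362), and fibroblast (0.343) and endothelial genes (0.346) to Tgm2. These distances describe the same 8 libraries and name no cell of origin.

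**Figure D4:**
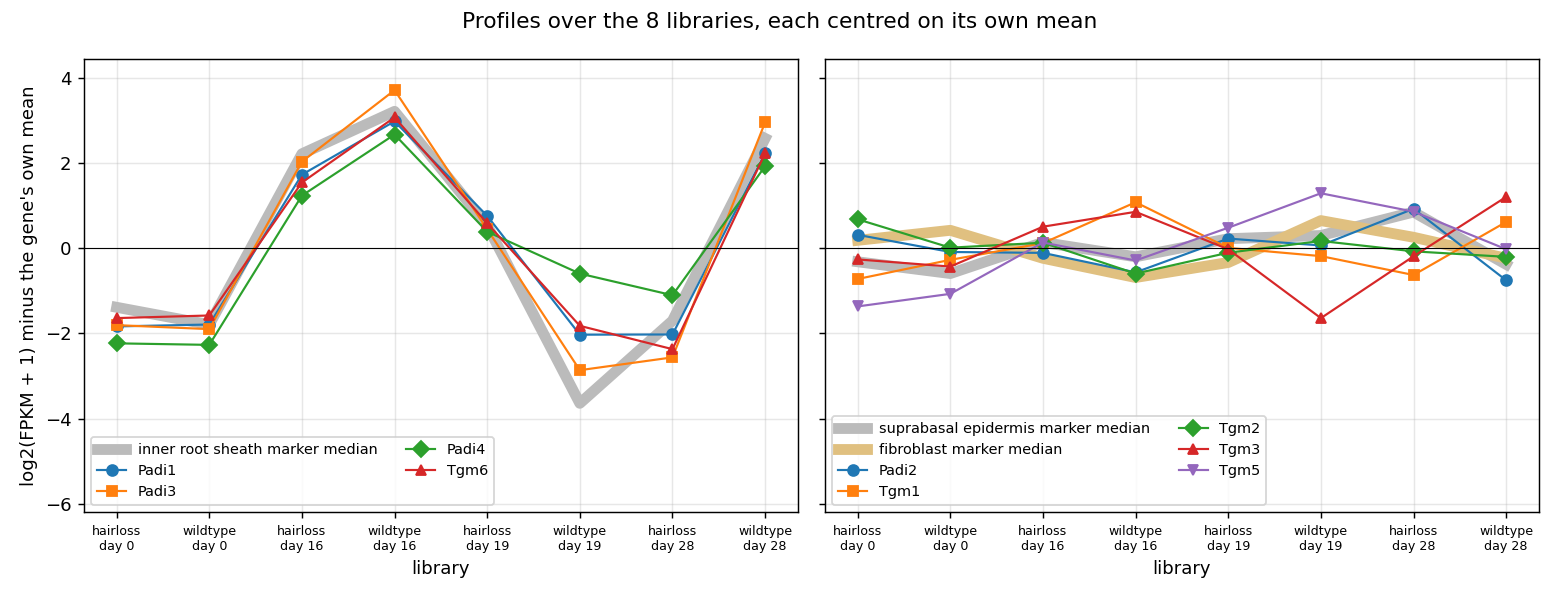
Profiles over the 8 libraries of log2(FPKM + 1) minus each gene's mean (vertical axis), with thick lines for the median of marker genes. On the left Padi1, Padi3, Padi4 and the neighbour gene Tgm6 run with the inner root sheath markers, and Padi4 lies above them in wildtype skin of day 19. On the right the other 5 genes vary less, with Tgm3 lowest and Tgm5 highest in wildtype skin of day 19.

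Among single coding genes, the nearest to Padi3 was Crnn (0.110), which encodes cornulin, a fused S100-type protein of squamous epithelium. Crnn had 106, 31.4 and 3.46 FPKM at days 16, 19 and 28 in hairloss skin and 371, 2.87 and 240 FPKM in wildtype skin. Next to Padi3 came Krt82 (0.333), a keratin of the hair cuticle, and Krt27 (0.355), of the inner root sheath. Padi1 was nearest to Tgm6 (0.199), the serine protease gene Prss53 (0.303) and the calpain gene Capn8 (0.320). Padi4 was nearest to Pla2g2e (0.289), a secreted phospholipase of the follicle, the hair keratin Krt32 (0.404) and the membrane protease gene Tmprss11e (0.410). The nearest to Tgm5 was Krtdap (0.203), a secreted peptide of differentiating keratinocytes, with 2738, 3114 and 3865 FPKM in hairloss and 2105, 6162 and 1907 FPKM in wildtype skin at days 16, 19 and 28. Tgm1 was nearest to the kinase gene Sgk3 (0.117), Tgm3 to the aminopeptidase gene Lap3 (0.305), Tgm2 to Sema6b (0.124) and Padi2 to Ccbe1 (0.210). With a pseudocount of 0.1, 12 of these 24 nearest genes were the same.

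The make-up of each family differed between libraries. The 4 deiminases summed to 7.33, 103, 41.7 and 8.84 FPKM in hairloss skin and 6.25, 304, 7.44 and 180 FPKM in wildtype skin at days 0, 16, 19 and 28. Padi3 held 62.0% of the sum in hairloss and 67.6% in wildtype skin at day 16, and 67.7% in wildtype skin at day 28. In hairloss skin of day 28 Padi2 held the largest share, 46.7%, followed by Padi4 with 26.6%, and in wildtype skin of day 19 Padi4 held the largest, 50.6%. The 4 transglutaminases summed to 59.3, 80.1, 73.1 and 65.2 FPKM in hairloss and 55.7, 107, 77.5 and 99.0 FPKM in wildtype skin. Tgm5 held 30.0% of that sum in hairloss skin of day 28 against 10.3% in wildtype, and Tgm1 31.6% against 50.8%.

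**Figure D5:**
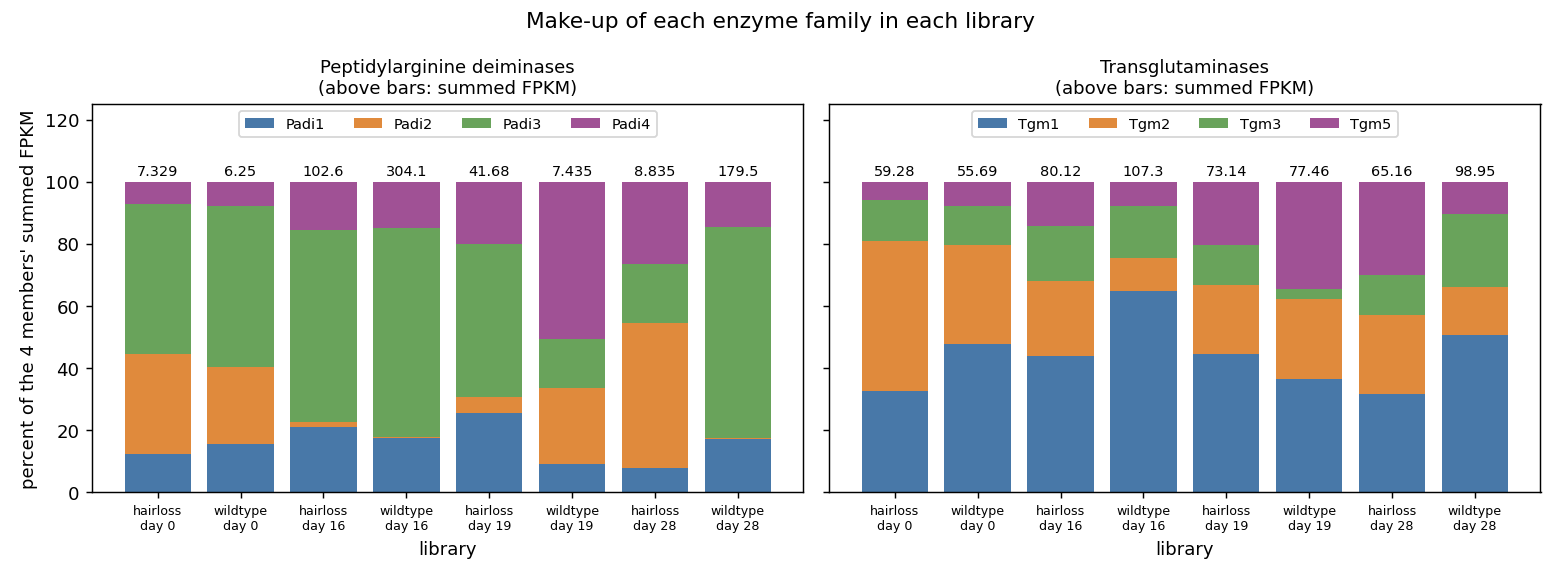
Share of each gene in the summed FPKM of its 4 family members (vertical axis, percent) in the 8 libraries, hairloss left of wildtype at each day, with the sum in FPKM above each bar. The deiminase sum is 304 and 180 FPKM in wildtype skin of days 16 and 28, mostly Padi3, and under 9 FPKM in hairloss skin of day 28.

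Known follicle targets of these enzymes, and the related gene Tchhl1, were like Padi3 at least 2-fold higher in hairloss skin at day 19 and lower at day 28. S100a3, a calcium-binding protein of the hair cuticle that PADI3 citrullinates in humans, had 17.8, 463, 191 and 7.67 FPKM in hairloss skin and 23.5, 1655, 7.93 and 1767 FPKM in wildtype skin. Tchhl1, a trichohyalin-like gene, had 1.48, 198, 61.7 and 0.172 FPKM in hairloss and 1.15, 394, 9.46 and 337 FPKM in wildtype skin. Trichohyalin itself (Tchh) had 63.8, 1419, 464 and 21.4 FPKM in hairloss and 56.6, 0 (as listed), 34.1 and 2076 FPKM in wildtype skin. Such an exact 0, in a library where the related genes were high, can be a failed estimate. The call held for 3 of 3 genes at both days, where 6.53% of all genes were higher at day 19 and 6.42% lower at day 28. The medians of the 3 were 3.73 and -7.67, and those of all genes -0.0018 and 0.00029. At day 16 the 3 genes split, with S100a3 at -1.84, Tchhl1 at -0.99 and Tchh, on its wildtype 0, at 10.5.

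Epidermal targets stood mostly on the higher side in hairloss skin. Of 20 envelope and filaggrin-type genes, 3 of 18 compared were at least 2-fold higher and 0 lower at day 0, 7 of 18 higher and 1 lower at day 16, 6 of 18 higher and 2 lower at day 19, and 10 of 19 higher and 1 lower at day 28. Among all genes the shares were 1.49%, 5.34%, 6.53% and 5.60% higher and 1.58%, 7.39%, 5.76% and 6.42% lower. The medians were 0.53, 0.68, 0.45 and 1.09, against -0.012, -0.080, -0.0018 and 0.00029 for all genes. Of the higher genes, 3 at day 16 and 1 each at days 19 and 28 were listed at 0 in wildtype. Those of day 16 were Rptn, Hrnr and Sprr2d. Rptn and Hrnr had 41.5 and 17.0 FPKM in wildtype skin of day 19, so their 0 at day 16 can be a failed estimate, as for Tchh. The lower genes were Flg2 at days 16 (-1.64) and 19 (-2.94), Lor at day 19 (-1.09) and Sprr1a at day 28 (-2.68). Lower at day 16, but short of the rule, were Lor (-0.90), Sprr1a (-0.79), Ppl (-0.79), Evpl (-0.72) and Ivl (-0.65). Filaggrin (Flg), which bundles keratins and is citrullinated by PADI1 and PADI3, had 1744, 1139, 1361 and 1932 FPKM in hairloss skin and 1847, 73.2, 89.1 and 195 FPKM in wildtype skin. Sprr1b, a small proline-rich substrate of TGM1 and TGM3 in humans, had 37.8, 33.3, 96.4 and 23.6 FPKM in hairloss and 20.1, 17.7, 0.243 and 10.5 FPKM in wildtype skin. Filaggrin was thus high in the libraries of hairloss skin, including day 28, where Padi1 and Padi3 were at or near their lowest.

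Of 12 genes for proteases and inhibitors of envelope and filaggrin processing, 0, 2, 4 and 2 were at least 2-fold higher at days 0, 16, 19 and 28, against 1.49%, 5.34%, 6.53% and 5.60% of all genes. Lower were 0, 1, 0 and 2, against 1.58%, 7.39%, 5.76% and 6.42% of all genes. The medians were 0.23, 0.03, 0.33 and 0.34. Casp14, a caspase that helps break down filaggrin, had 40.0, 76.5, 112 and 103 FPKM in hairloss and 36.9, 12.1, 14.5 and 27.2 FPKM in wildtype skin. Prss8, a membrane-anchored protease of the barrier, had 19.2 and 11.6 FPKM in hairloss and 48.6 and 27.9 FPKM in wildtype skin at days 16 and 28. Of the 12 genes, 6 passed limma from day 0 to day 16, all higher, among them Ctsl, cathepsin L (2.22 ± 0.37 SE; limma adjusted p = 0.0382), and Klk7, a kallikrein of desquamation (2.52 ± 0.28; limma adjusted p = 0.0239). Klk7 was named after its values were seen, as was Cst6, the cystatin that inhibits cathepsin L, which rose by 6.57 ± 0.33 (limma adjusted p = 0.00526). In the same step 3 of 19 envelope genes and 2 of 10 envelope lipid enzyme genes rose and none fell. At that step 3.58% of all genes were called higher and 4.42% lower, and 44.8% of these calls were higher, against 25.6% when libraries were scaled without keratins.

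Envelope lipid enzymes, which make the ceramides that TGM1 can attach, differed 2-fold at few points. None of 10 was past the rule at days 0 and 16, 1 was lower at day 19 and 3 were higher at day 28. Among all genes 1.49%, 5.34%, 6.53% and 5.60% were higher and 1.58%, 7.39%, 5.76% and 6.42% lower at the 4 days. The median of the 10 was 0.69 at day 28. The lipoxygenase gene Alox12b had 28.8 FPKM in hairloss and 5.57 FPKM in wildtype skin at day 28, Elovl4, a fatty acid elongase gene, 517 and 167 FPKM, and the lipid transporter gene Abca12 35.1 and 15.6 FPKM. The lower gene at day 19 was Aloxe3, with 6.08 FPKM in hairloss and 13.3 FPKM in wildtype skin. At day 28 Alox12b, Elovl4 and Abca12 were past the rule on the higher side and Tgm1 on the lower, and the other 7 lipid genes lay between -0.49 and 0.82. Suprabasal epidermal markers summed to 14720 FPKM in hairloss and 4230 FPKM in wildtype skin.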

How the data were processed

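Skin RNA was sequenced in 8 libraries, 1 per genotype and day. The authors deposited 1 value per Ensembl gene, whose unit no header gives. It is read as FPKM because of its distribution and because Cuffdiff appears, beside cutadapt and build mm10, per the submitters' processing notes. The sources used here do not give the aligner, the annotation release, the strandedness or the scaling between libraries. Symbols came from the files (21795 genes) or GENCODE M21, on the same build, which gave coordinates. Depth was estimated from the value of 1 fragment in single-transcript genes over 1000 bases, and covers counting error only.

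All tests and differences used log2(FPKM + 1), a scale on which folds of low genes come out too small. limma 3.58.1 (R 4.3.3; eBayes with trend and robust) tested genotype and day together over the 18724 genes that reached 1 FPKM in a library, with 3 residual degrees of freedom, two-sided, Benjamini-Hochberg adjusted, threshold 0.05. The genotype p-values measure the spread of the difference over days. The fit was checked on simulated data with the same genotype shift at every day. That check does not cover differences that change sign between days, such as those of Padi1 and Padi3. Age and group came from the sample labels. The members, lists and tests were chosen with earlier results of these data known. The rule named all members, the 3 coding genes nearest each member in profile, and up to 4 genes per list with the largest difference at each day. The marker lists matched the files except for 1 hair shaft keratin. Alternatives changed the pseudocount (0.1 and 5), the scaling, the filter, the fold rule (1.5), limma's settings and the days used. Other steps used Python 3.11.15 with numpy 2.4.6 and pandas 2.3.3.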

Additional observations from a re-analysis of the deposited data

Results flagged for a closer look

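The hairloss minus wildtype difference changed sign between days for 3 genes past the 2-fold rule at both days, and no test of that change between days was made. Padi1 stood at -1.25 at day 16, 2.79 at day 19 and -4.25 at day 28 on the log2(FPKM + 1) scale. Padi3 stood at -1.68, 3.31 and -5.52 at the same days. Tgm3 stood at 1.62 at day 19 and -1.39 at day 28. Inner root sheath keratins were lower, higher and lower at these days too, with medians of -1.63, 3.93 and -4.21. So were hair shaft keratins, with medians of -2.16, 3.64 and -8.75. The part of either set in the change of sign was not tested.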

How the results depend on the processing

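Libraries were paired by day alone, as a block in limma. No paired analysis by replicate number was possible because the labels give none. Differences of the 8 genes at single days kept their sign wherever the main difference was past 2-fold, under each of the 6 alternatives tried. Both scalings left each of the 32 calls on its side of the rule. With a pseudocount of 5, Tgm3 at day 19 (0.96) and Padi2 at day 28 (0.70) fell short of it, so that 0 members were higher at day 28. With a pseudocount of 0.1, Padi4 at day 19 passed it (1.14). With a 1.5-fold rule, 1 member was higher at day 0, 1 higher at day 16, 1 lower at day 19 and 2 higher at day 28. Tgm1 at day 16 (-0.96) also joined the lower members and Padi4 at day 19 (0.98) the higher ones. Of all genes, that rule had 619 of 16685 higher at day 0 and 2126 of 16021 higher at day 28. At day 16 it had 1901 of 16186 higher and 3035 lower, and at day 19 2381 of 16656 higher and 2394 lower. No member passed limma under any alternative. Leaving out day 28 turned the mean genotype difference of Padi1 to 0.50 and of Padi3 to 0.57, both with limma adjusted p over the threshold. Leaving out day 19 gave -1.85 and -2.37. The sign of the mean difference of Tgm3 and of Tgm5 also depended on the day left out. Genes called for genotype numbered 7, against 3 with a pseudocount of 5, 2 without the filter and 2 to 6 when a day was left out. From day 0 to day 16, 1497 genes were called, against 2274 when libraries were scaled without keratins and keratin-associated proteins, which moved the median of all genes at that step to -0.23 instead of -0.055, and 456 without the filter. At that step 44.8% of calls were higher, against 25.6% with that scaling. At the next step 3 genes were called, against 1 with a pseudocount of 5 and 1 without the filter, and at the last step 0, against 5 with a pseudocount of 0.1. The same scaling moved the median of all genes at day 28 to 0.105, instead of 0.00029. The cause of these changes was not tested. Depth limits the low values: at 54.1 estimated fragments, Padi4 at day 0 is the least precise.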

Other observations

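Other genes of the transglutaminase family had separate profiles. Tgm7, whose start site is 24.0 kb from that of Tgm5, had 0.187, 0.0649, 0.0571 and 0.0527 FPKM at days 0, 16, 19 and 28 in hairloss skin, and 0.169, 0.558, 1.86 and 0.530 FPKM in wildtype skin. Its highest level was in wildtype skin of day 19, the library in which Tgm5 was also highest. F13a1, the clotting factor XIII subunit that dermal macrophages also make, had 43.2, 52.3, 39.8 and 45.3 FPKM in hairloss and 48.7, 22.5, 51.9 and 36.1 FPKM in wildtype skin. At day 16 it was past 2-fold on the higher side, as were all 10 macrophage markers and 5.34% of all genes. Tgm4, the prostate transglutaminase, stood at 1.27 to 1.65 FPKM in hairloss and 0.654 to 1.46 FPKM in wildtype skin, and Epb42, an inactive relative of red blood cells, at 0.0664 to 0.339 and 0.110 to 0.424 FPKM.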
